A study of Mus musculus with 12 samples.

Results

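The BCL2 family decides whether a cell starts the mitochondrial programme of cell death, and 10 of its genes were followed here across blood stem and progenitor cells and mature myeloid cells of mice with mutations in CBL and RUNX1. The genes are a fixed list of named genes, chosen with earlier results of these data known, and they are 10 of the 28987 genes in the table. There were 4 survival members (Bcl2, Bcl2l1, Mcl1 and Bcl2a1b), 2 effectors (Bax and Bak1) and 4 BH3-only members, which share with the others the BH3 motif alone (Bid, Bcl2l11, Bbc3 and Pmaip1). The last 6 are called death members below. All 10 were present, and each had at least 1 TPM in all 12 libraries, so none was lost to the filter on low values. TPM is the deposited unit, a gene's length-corrected share of a library's transcripts, so levels of different genes can be set side by side within a library, and libraries were compared after scaling.

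The study measured mRNA by sequencing in 12 bone marrow libraries of C57BL/6 mice, 2 libraries in each of 6 groups. Hematopoietic stem and progenitor cells (HSPC) were enriched with a kit for CD117, the receptor encoded by Kit, and there were 4 genotypes, namely wild type, CBL mutant, RUNX1 mutant and the CBL/RUNX1 mutant, called double mutant below. Ly6G+ myeloid cells were sorted from marrow that was wild type or double mutant. The mutant cells were described as a clone that was sorted by flow cytometry, in a series on myelodysplastic syndrome, and marrow was taken from individual mice. The labels name neither the alleles, nor the way the mutations were introduced, nor the age of the mice, nor any treatment. The protein CBL tags activated cytokine and growth factor receptors with ubiquitin and so limits their signals, and RUNX1 binds DNA and is needed to form and mature blood cells.

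In the mitochondrial pathway, the effector proteins BAX and BAK1 form pores in the outer membrane of mitochondria and release cytochrome c, which starts the caspases. BCL2, BCL-XL (the product of Bcl2l1), MCL1 and the A1 proteins (the products of the Bcl2a1 genes) hold the effectors in check, and the BH3-only proteins answer stress signals by binding the survival proteins or by activating the effectors directly. MCL1 is a short-lived protein on which stem cells and neutrophils depend, and NOXA (the product of Pmaip1) binds MCL1 and A1 in preference to the other survival proteins. Much of this control acts on the proteins, which mRNA levels do not show.

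Because RUNX1 is mutant in 3 of the 6 groups, the 250 bases before each RefSeq start of the members were searched for TGTGGT and TGCGGT, the letters of a core RUNX site, on both strands. RefSeq windows on GRCm38.p6 were matched by symbol for 9 of the 10 members, 14 windows in all, and for Pmaip1 none was used. The letters were found in 3 of the 14 windows and in 2 of the 9 members, Bcl2l11 and Bak1, against 18.59% of all 32851 windows searched. The windows of Mcl1, Bax and Bcl2l11 are shown. Mcl1 and Bax are the survival member and the effector that differed most between the wild type populations, and neither window holds the letters. The window of Bcl2l11, one of 2 for that gene, holds them once, 30 bases before the start and on the reverse strand, in capitals. Each is written on the strand of its gene.
Mcl1, chr3:95658471-95658720, plus strand: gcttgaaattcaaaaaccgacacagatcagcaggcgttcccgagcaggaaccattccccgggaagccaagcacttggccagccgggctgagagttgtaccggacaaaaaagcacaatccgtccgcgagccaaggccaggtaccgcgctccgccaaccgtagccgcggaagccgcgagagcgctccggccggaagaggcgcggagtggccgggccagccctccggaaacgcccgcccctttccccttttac
Bax, chr7:45466899-45467148, minus strand: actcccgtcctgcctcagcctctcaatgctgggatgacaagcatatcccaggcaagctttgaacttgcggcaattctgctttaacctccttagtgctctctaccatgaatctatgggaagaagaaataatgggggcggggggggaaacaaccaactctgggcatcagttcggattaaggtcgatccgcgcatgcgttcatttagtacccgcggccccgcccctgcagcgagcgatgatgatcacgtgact
Bcl2l11, chr2:128125788-128126037, plus strand: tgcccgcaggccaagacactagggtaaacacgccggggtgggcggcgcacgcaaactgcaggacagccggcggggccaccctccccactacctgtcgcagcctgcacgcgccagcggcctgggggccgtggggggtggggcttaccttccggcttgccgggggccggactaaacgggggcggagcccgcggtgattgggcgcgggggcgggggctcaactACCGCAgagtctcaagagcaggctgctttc
A match is a run of letters and not a measured binding site, and a window without one says nothing about RUNX1 at that gene.

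On GRCm38 the survival genes lie at chr1:106538178-106714274 (Bcl2), chr2:152780668-152831728 (Bcl2l1), chr3:95658788-95663176 (Mcl1) and chr9:89199209-89207827 (Bcl2a1b). The effectors lie at chr7:45461697-45466898 (Bax) and chr17:27019810-27029009 (Bak1). The BH3-only genes lie at chr6:120891930-120916853 (Bid), chr2:128126038-128162547 (Bcl2l11), chr7:16308393-16318205 (Bbc3) and chr18:66458533-66465565 (Pmaip1). All are annotated as protein coding. Bcl2a1b belongs to a set of near-identical copies: its reference transcript shares 99.14% of its aligned bases with that of Bcl2a1d and 98.16% with that of Bcl2a1a. Its level is therefore uncertain, since reads of the copies can be split or joined by the counting, and Bcl2a1a and Bcl2a1d were not analysed here.

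The populations were checked against their markers before the family was compared. Every HSPC library held neutrophil transcripts: the 11 neutrophil markers made up 33.9% and 36.5% of the TPM of the wild type HSPC, 32.2% and 26.3% in CBL mutant, 15.2% and 32.6% in RUNX1 mutant and 9.26% and 10.5% in double mutant HSPC. They made up 42.6% and 42.2% of wild type and 9.65% and 33.9% of double mutant Ly6G+ libraries. The 9 stem and progenitor markers summed to between 213 and 922 TPM in HSPC and to between 103 and 450 TPM in Ly6G+ cells. No marker of either list was at 0 in any library. Replicates of most groups were alike, with an SD of the log2 difference between both libraries, over genes, of 0.30 to 0.38. The exceptions were RUNX1 mutant HSPC at 0.71 and double mutant Ly6G+ cells at 0.998. Library 1 of RUNX1 mutant HSPC had 1053 TPM of the 4 mast cell and basophil markers, against 20.1 to 305 elsewhere, and library 1 of double mutant Ly6G+ cells had neutrophil markers at the level of double mutant HSPC. In bulk samples such as these, fewer cells of a type and less RNA per cell cannot be told apart. Values below are TPM after scaling between the 12 libraries (scaled TPM) unless another scale is named.

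Within wild type HSPC the family ran from Bak1 down to Pmaip1. Bak1 stood at 109 and 119 scaled TPM, Mcl1 at 97.9 and 99.3, and Bax at 77.5 and 90.7, and no other member reached 31. Bid, which is cut by caspase 8 and so links death receptors to mitochondria, followed at 25.7 and 30.1, and Bcl2l1 at 15.9 and 14.4. The remaining 5 were all under 7 scaled TPM, Pmaip1 lowest at 2.96 and 2.54. No 2 neighbours in this order overlapped in wild type HSPC. In the mutant HSPC the 3 most abundant members were the same, but Bak1 overlapped its neighbour in each of the 3 mutant groups. Mcl1 led alone in wild type Ly6G+ cells, at 464 and 475 scaled TPM, followed by Bak1 at 52.9 and 61.0, Bid at 49.7 and 49.4, and Bax at 32.6 and 33.1, and Bcl2 came last at 3.49 and 3.46. Pmaip1 ranked 10 of 10 in wild type HSPC and 6 of 10 in double mutant HSPC.

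**Figure D1:**
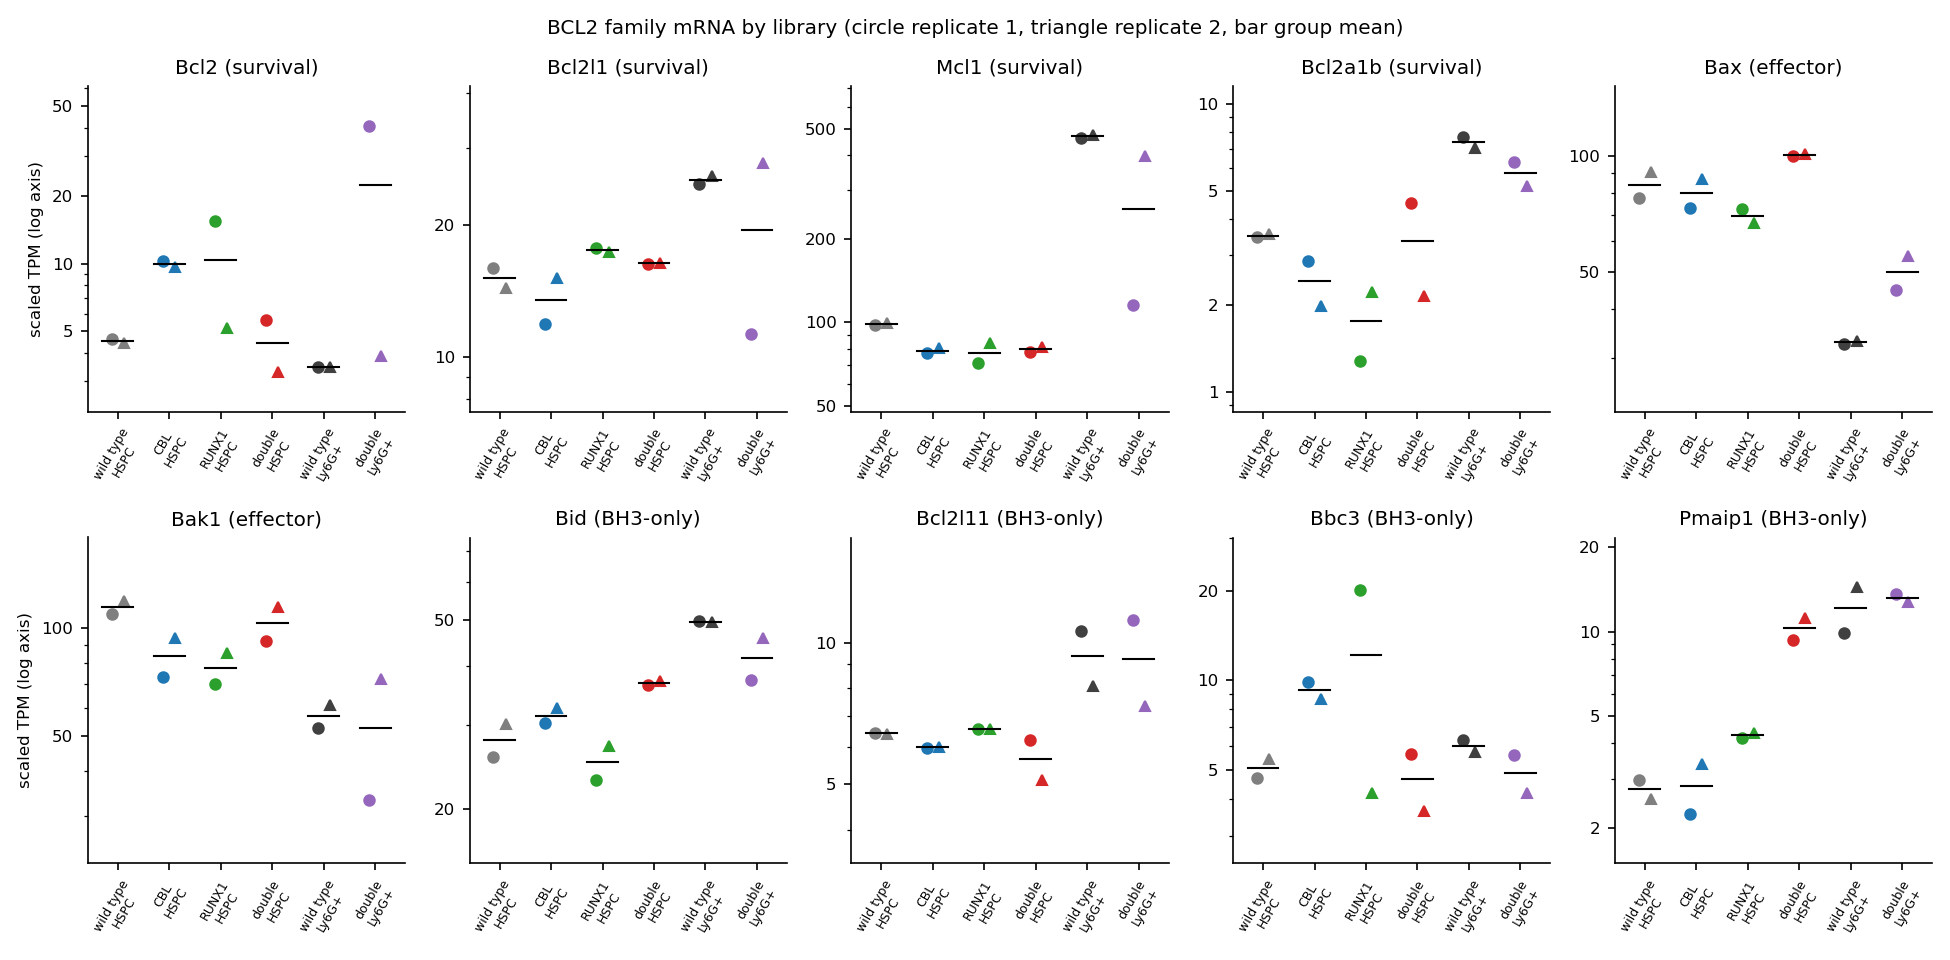
Scaled TPM on log axes of the 10 members in each library, 1 panel per gene, with the 6 groups along the x axis, replicate 1 as a circle, replicate 2 as a triangle and the group mean as a bar. Mcl1 stands highest in wild type Ly6G+ cells, Pmaip1 is higher in both double mutant HSPC libraries than in the other 6 HSPC libraries, and the double mutant Ly6G+ libraries lie far apart for Bcl2 and Mcl1.

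Among the survival members in HSPC, Mcl1 was at 97.9 and 99.3 scaled TPM in wild type, 77.3 and 80.6 in CBL mutant, 71.5 and 84.1 in RUNX1 mutant and 78.4 and 81.4 in double mutant libraries. All 6 mutant libraries were thus below both wild type libraries on this scale. The wild type libraries also held the highest neutrophil marker sums of the HSPC, 397000 and 501000 scaled TPM, whose part in this was not tested. In double mutant against wild type HSPC the log2 fold change of Mcl1 was -0.30 ± 0.12 (SE, n = 2 and 2, adjusted p = 0.143). With unscaled TPM it was 0.33 (adjusted p = 0.147), still below the median of all genes on that scale, 0.561. Bcl2, the founding member and the target of venetoclax, was at 4.64 and 4.46 in wild type, 10.3 and 9.67 in CBL mutant, 15.5 and 5.17 in RUNX1 mutant and 5.62 and 3.31 in double mutant HSPC. Both CBL mutant libraries were above all wild type and double mutant libraries, while the RUNX1 mutant libraries lay far apart. Bcl2l1 varied little, from 11.9 to 17.7 in the 8 HSPC libraries, and Bcl2a1b was between 1.28 and 4.55.

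In Ly6G+ cells, Mcl1 was at 464 and 475 in wild type and at 115 and 397 scaled TPM in double mutant libraries. Bcl2 was at 3.49 and 3.46 in wild type and at 41.0 and 3.88 in double mutant libraries, so that library 1 alone was high. Bcl2l1 was at 24.8 and 25.9 in wild type and at 11.3 and 27.7 in double mutant Ly6G+ cells. For Mcl1, Bcl2 and Bcl2l1, double mutant library 2 lay close to wild type, and library 1, the one with few neutrophil transcripts, did not. Bcl2a1b, 7.71 and 7.03 in wild type, was at 6.30 and 5.20 in double mutant Ly6G+ cells.

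Of the effectors, Bax was at 77.5 and 90.7 scaled TPM in wild type, 73.0 and 87.0 in CBL mutant, 72.7 and 66.9 in RUNX1 mutant and 99.8 and 101.0 in double mutant HSPC. Double mutant HSPC held the 2 highest values. Ly6G+ cells, at 32.6 and 33.1 for wild type against 45.0 and 54.8 for the double mutant, all lay below every HSPC library. Bak1 was at 109 and 119 in wild type, 73.0 and 94.2 in CBL mutant, 70.0 and 85.1 in RUNX1 mutant and 92.0 and 114.5 in double mutant HSPC, and at 52.9, 61.0, 33.3 and 72.2 in wild type and double mutant Ly6G+ cells. The ranges of Bak1 in HSPC and Ly6G+ cells overlapped only through the double mutant Ly6G+ library at 72.2, which lay above 1 RUNX1 mutant library.

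Among the BH3-only members, Pmaip1 (NOXA), whose transcription p53 and other stress factors can raise, was at 2.96 and 2.54 scaled TPM in wild type, 2.25 and 3.39 in CBL mutant, 4.19 and 4.35 in RUNX1 mutant and 9.35 and 11.2 in double mutant HSPC. Both double mutant libraries were more than 2 times as high as any other HSPC library. Its Ly6G+ values, 9.92 and 14.4 for wild type against 13.6 and 12.8 for the double mutant, overlapped. Bbc3, which encodes the p53 target PUMA, was at 4.70 and 5.46 in wild type, 9.89 and 8.69 in CBL mutant, 20.1 and 4.19 in RUNX1 mutant and 5.67 and 3.66 in double mutant HSPC. Like Bcl2, it was higher in both CBL mutant than in both wild type libraries, and was high in 1 RUNX1 mutant library only. In that library, number 1, Bcl2 and Bbc3 both had their highest value among the 8 HSPC libraries, beside the mast cell and basophil markers given above, whose part in these values was not tested.

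Bid was at 25.7 and 30.1 in wild type, 30.2 and 32.6 in CBL mutant, 23.0 and 27.1 in RUNX1 mutant and 36.4 and 37.1 scaled TPM in double mutant HSPC. Its 2 highest values in HSPC were those of the double mutant, and Ly6G+ cells lay higher still, at 49.7 and 49.4 for wild type and 37.3 and 45.7 for the double mutant. Bcl2l11, which encodes BIM, a direct activator of the effectors that growth factor withdrawal induces, was the steadiest member in HSPC. Its 8 HSPC values lay between 5.10 and 6.56, and its 4 Ly6G+ values between 7.32 and 11.2.

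Double mutant HSPC were then compared with wild type HSPC, over 12421 genes. Only 1 of the 10 members passed at an adjusted p under 0.05, Pmaip1. It rose 3.0-fold in scaled TPM + 1, the scale of the fit (log2 fold change 1.59 ± 0.21, SE, n = 2 and 2, adjusted p = 0.0144). Its mean scaled TPM was 2.75 in wild type and 10.27 in double mutant HSPC. In this comparison 11.1% of all genes tested passed, so 1 of 10 is near the background. Bid (log2 fold change 0.39 ± 0.13, adjusted p = 0.0961) and Bax (0.26 ± 0.14, adjusted p = 0.25) did not pass. Without scaling of the TPM both passed, at 1.01 (adjusted p = 0.0103) and 0.89 (adjusted p = 0.0173), when the median of all genes also stood at 0.561. The groups did not overlap for 6 of the 10 members, against 71.1% of all genes. The call of Pmaip1 was lost when any library of either group was left out, with log2 fold changes of 1.68 and 1.52 without wild type library 1 or 2 (adjusted p = 0.135 and 0.153) and of 1.71 and 1.47 without double mutant library 1 or 2 (adjusted p = 0.0799 and 0.124). Markers moved beside it: of the 11 neutrophil markers 9 were lower in double mutant HSPC, their sum being 71400 and 89210 scaled TPM against 397000 and 501000 in wild type. Of the 9 stem and progenitor markers 1 was higher, with sums of 485 and 418 against 213 and 221, and the 7 B lineage markers summed to 25.6 and 21.2 against 1553 and 1715, with Ms4a1 at 0 in double mutant library 2. Their part in the Pmaip1 difference was not tested. In wild type Ly6G+ cells, where the neutrophil sum was highest, Pmaip1 stood at 9.92 and 14.4 scaled TPM.

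The single mutants were compared with wild type HSPC next. No member passed in either comparison with limma, where 0.556% of all genes did so for CBL mutant and 0.0483% for RUNX1 mutant HSPC, and 2 of the 10 members had an unadjusted p under 0.05 in each, against 10.8% and 16.5% of all genes. These were Mcl1 and Bak1, both lower by value, with log2 fold changes of -0.32 (adjusted p = 0.43) and -0.46 (adjusted p = 0.444) in CBL mutant HSPC and of -0.34 (adjusted p = 0.272) and -0.56 (adjusted p = 0.252) in RUNX1 mutant HSPC. In CBL mutant HSPC the log2 fold change of Bcl2 was 0.98 ± 0.44 (adjusted p = 0.489), that of Bbc3 0.76 ± 0.58 (adjusted p = 0.635) and that of Pmaip1 0.01 ± 0.21 (adjusted p = 0.985). In RUNX1 mutant HSPC these were 0.86 ± 0.44 for Bcl2 (adjusted p = 0.35), 0.79 ± 0.58 for Bbc3 (adjusted p = 0.479) and 0.49 ± 0.21 for Pmaip1 (adjusted p = 0.303). The error of Bcl2 and Bbc3 is pooled over all 4 HSPC groups and so carries the gap between the RUNX1 mutant libraries. A fit of CBL mutant and wild type HSPC alone called both, Bcl2 at 0.98 (adjusted p = 0.0115) and Bbc3 at 0.76 (adjusted p = 0.0325). The 0.556% above belongs to the fit of all HSPC libraries. A larger share of all genes passed in the restricted fit, where the unadjusted p of Bbc3 was 0.0012. In RUNX1 mutant HSPC, Bcl2 stood at 0.16 and Bbc3 at -0.21 without library 1, and at 1.57 (adjusted p = 0.00378) and 1.8 (adjusted p = 0.00178) without library 2. The libraries of the 2 groups did not overlap for 7 of the 10 members in CBL mutant HSPC, against 56.8% of all genes, and for 8 of the 10 in RUNX1 mutant HSPC, against 49.1%.

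Against each single mutant, Pmaip1 was again the only member that passed. It was higher in double mutant than in CBL mutant HSPC by a log2 of 1.58 ± 0.21 (adjusted p = 0.0166, with 3.67% of all genes called) and higher than in RUNX1 mutant HSPC by 1.10 ± 0.21 (adjusted p = 0.0305, with 9.09% called). These comparisons and the one with wild type share the double mutant libraries. Against CBL mutant HSPC the call was lost without any one wild type, CBL mutant or double mutant library (log2 1.36 to 1.8, adjusted p = 0.059 to 0.147). Against RUNX1 mutant HSPC it was lost on leaving out 6 of the 8 libraries, all but those of the RUNX1 mutant (log2 0.97 to 1.22, adjusted p = 0.0509 to 0.211), and in a fit of those 2 groups alone (1.14, adjusted p = 0.149). Bcl2 was lower in double mutant than in CBL mutant HSPC by value (log2 fold change -1.04, adjusted p = 0.192), and Bax and Bid were above RUNX1 mutant HSPC by value (0.52, adjusted p = 0.0654, and 0.54, adjusted p = 0.0529). The groups did not overlap for 6 of 10 members in each, against 64.6% and 54% of all genes.

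The non-additive term asks whether the double mutant differs from the sum of both single mutant changes on the log2 scale. No member passed with limma, where 0.0161% of all genes did, and 4 of 10 had an unadjusted p under 0.05, against 19.3% of all genes. In size the terms of Bcl2, at -1.91 ± 0.62 (adjusted p = 0.179), and Bbc3, at -1.67 ± 0.82 (adjusted p = 0.313), came first among the members. They were followed by Pmaip1 at 1.08 ± 0.30 (adjusted p = 0.145), Bcl2a1b at 1.03 (adjusted p = 0.276) and Bak1 at 0.86 (adjusted p = 0.163). For Bcl2 the sign is that of a gene above wild type in both single mutants and back at the wild type level in the double mutant. Without RUNX1 mutant library 1 the term of Bcl2 was -1.19, and without library 2 it was -2.62 (adjusted p = 0.00541).

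**Figure D2:**
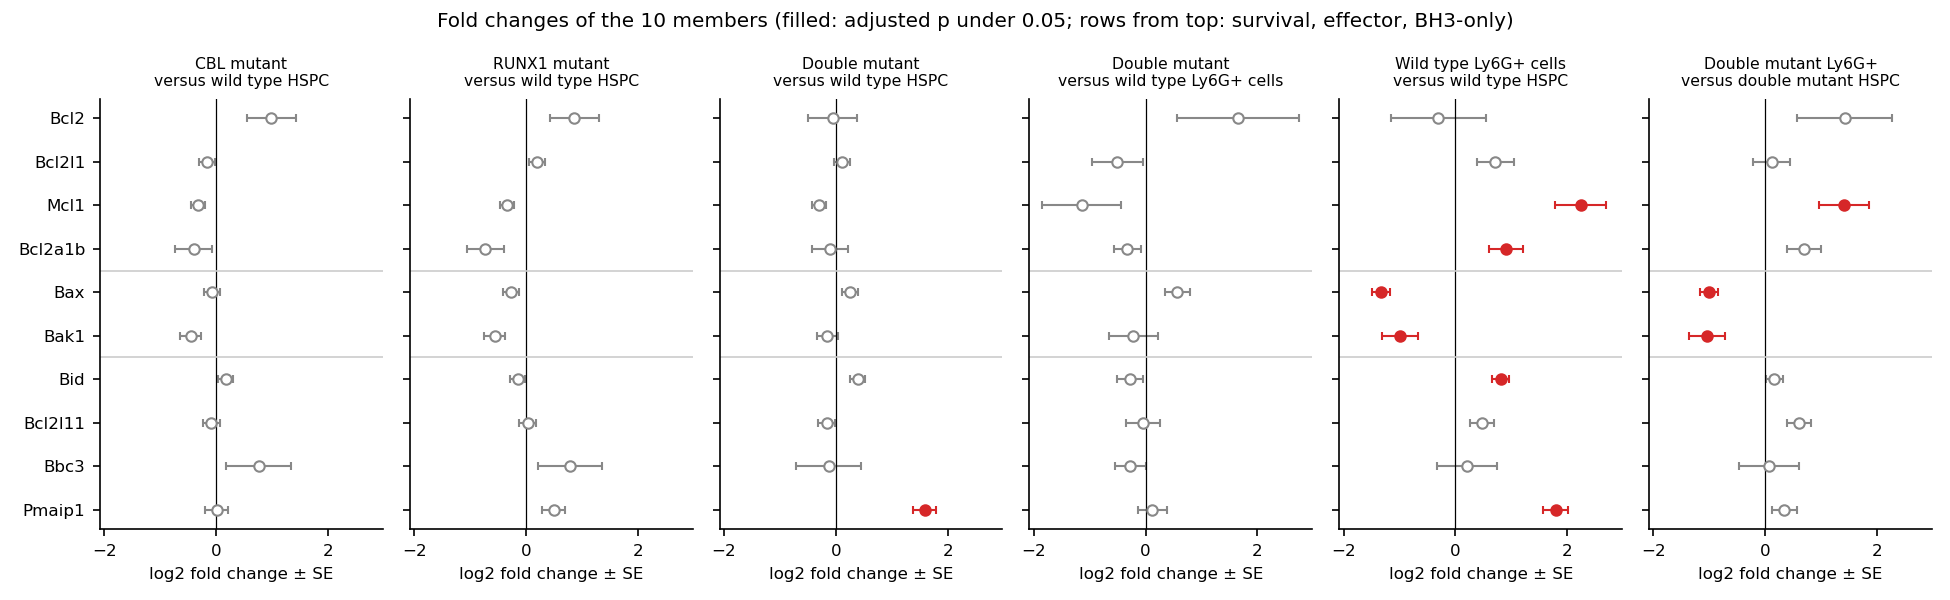
Log2 fold change ± SE of the 10 members in 6 comparisons, with survival members, effectors and BH3-only members from top to bottom and filled points at an adjusted p under 0.05. Pmaip1 is the only filled point among the 3 comparisons of mutant with wild type HSPC, and 6 points are filled between the wild type populations.

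Wild type Ly6G+ cells and wild type HSPC differed far more. Of the 10 members 4 rose in Ly6G+ cells and 2 fell, that is 6 of 10, where 39.1% of all 13155 genes passed, 16.4% higher and 22.7% lower. Mcl1 rose 4.72-fold (log2 2.24 ± 0.45, adjusted p = 0.00613), Pmaip1 by a log2 of 1.79 ± 0.23 (adjusted p = 0.0011), Bid by 0.81 ± 0.15 (adjusted p = 0.00471) and Bcl2a1b by 0.90 ± 0.30 (adjusted p = 0.0446). Both effectors fell, Bax by a log2 of -1.33 ± 0.16 (adjusted p = 0.000983) and Bak1 by -1.0 ± 0.32 (adjusted p = 0.0392). The members that passed thus comprised 2 survival and 2 BH3-only members that rose and both effectors, which fell. Bcl2l1 (0.71 ± 0.33, adjusted p = 0.12) and Bcl2l11 (0.47 ± 0.22, adjusted p = 0.118) did not pass, though both Ly6G+ libraries lay above both HSPC libraries. A fit of the 2 compared groups alone called both, at 0.70 (adjusted p = 0.00047) and 0.46 (adjusted p = 0.0201). Most genes passed in that fit, since the unadjusted p of Bcl2l11 there was 0.0131, so these calls do not set the 2 members apart. All 10 members were without overlap between the 2 groups, against 84.3% of all genes. The calls of Mcl1, Bax, Bid and Pmaip1 held on leaving out each of the 12 libraries, whereas that of Bak1 was lost for 9 of them (log2 -1.10 to -0.90, adjusted p up to 0.161) and that of Bcl2a1b for 6 (0.84 to 0.96, adjusted p up to 0.168). The wild type HSPC held neutrophil transcripts too, as given above, and their part in the size of these differences was not tested.

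In the double mutant the same contrast called 3 of the 10 members, where 28.7% of all genes passed. Mcl1 was higher in Ly6G+ cells by a log2 of 1.41 ± 0.45 (adjusted p = 0.0473), and Bax was lower by -1.0 ± 0.16 (adjusted p = 0.00345) and Bak1 by -1.05 ± 0.32 (adjusted p = 0.0419). All 3 moved in the direction seen between the wild type populations. The libraries of both groups did not overlap for 7 of the 10 members, against 60.6% of all genes. The value of Mcl1 rests on 2 unlike libraries: it was 2.29 without Ly6G+ library 1 and 0.52 without library 2. Leaving out any of 10 libraries lost the call of Mcl1 (adjusted p = 0.0584 to 0.172) and any of 11 that of Bak1 (adjusted p = 0.0504 to 0.215), which stood at -0.51 without Ly6G+ library 1. In a fit of these 2 groups alone none of the 3 passed (adjusted p = 0.262 for Mcl1, 0.12 for Bax and 0.23 for Bak1). Pmaip1 did not pass here, and its double mutant HSPC values of 9.35 and 11.2 lay next to the Ly6G+ values of 13.6 and 12.8.

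Within Ly6G+ cells, no member differed between double mutant and wild type with limma and 0% of the 11744 genes passed. None of the 10 had an unadjusted p under 0.05, against 14.1% of all genes, and the groups did not overlap for 6 of the 10, against 62.7%. Bcl2 stood at a log2 fold change of 1.66 ± 1.09 (adjusted p = 0.432), Mcl1 at -1.15 ± 0.70 (adjusted p = 0.419) and Bax at 0.57 ± 0.22 (adjusted p = 0.36). The fit has 2 residual degrees of freedom and holds the gap between the double mutant libraries. With library 2 of the double mutant left out, which leaves library 1, Bcl2 stood at 3.19 and Mcl1 at -2.05. Bax stood at 0.41 in that fit and at 0.70 with library 1 left out. For Bax both double mutant libraries lay above both wild type libraries. In library 1 the neutrophil markers summed to 59970 scaled TPM and the stem and progenitor markers to 450, against 347500 and 161 in library 2, and their part was not tested.

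Whether the double mutation acted differently in both populations was tested as an interaction over all 12 libraries. No member passed with limma, where 0.0684% of all genes did, and 2 of 10 had an unadjusted p under 0.05, against 9.75% of all genes. The 2 were Pmaip1, at -1.45 ± 0.32 (adjusted p = 0.18), and Bid, at -0.65 (adjusted p = 0.36), both of which lay above wild type in both double mutant HSPC libraries, whereas in Ly6G+ cells Pmaip1 overlapped wild type and Bid lay below it. With RUNX1 mutant HSPC library 1 and double mutant Ly6G+ library 1 both left out, the term of Pmaip1 was -1.50 (adjusted p = 0.0342).

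The balance of survival and death members was read within each library from the deposited TPM, so that no scaling between libraries enters. The 4 survival members summed to 0.538 and 0.478 of the 6 death members in wild type HSPC, 0.526 and 0.463 in CBL mutant, 0.539 and 0.561 in RUNX1 mutant and 0.420 and 0.379 in double mutant HSPC. Double mutant HSPC held the 2 lowest ratios, below all other 6 HSPC libraries, an order that was not kept with Mcl1 left out, as given below. In wild type Ly6G+ cells the ratio was 3.09 and 2.98, and in double mutant Ly6G+ cells 1.19 and 2.20, so that survival transcripts outnumbered death transcripts in all 4 Ly6G+ libraries and in none of the HSPC. These ratios are a description with no test.

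Mcl1 was the largest part of the survival sum in every library. It made up between 66.3% and 92.9% of the survival sum, and Bax and Bak1 together between 52.8% and 82.5% of the death sum. With Mcl1 left out of the sum, the log2 ratio of survival to death members was below 0 in all 12 libraries, for example -2.17 and -2.24 in wild type Ly6G+ cells. The death sum of double mutant HSPC was higher in both of its classes by value. The effectors summed to 240.0 and 244.9 deposited TPM against 155.4 and 148.8 in wild type, and the BH3-only members to 72.2 and 64.9 against 33.1 and 31.6, on a scale on which the median of all genes also stood higher, by a log2 of 0.561.

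Pairs of members that bind each other as proteins gave narrower contrasts. The ratio of Mcl1 to Pmaip1 was 33.0 and 39.1 in wild type, 34.3 and 23.8 in CBL mutant, 17.1 and 19.3 in RUNX1 mutant and 8.39 and 7.28 in double mutant HSPC. It was lowest in the double mutant and next lowest in the RUNX1 mutant, with no overlap between these groups. For Ly6G+ cells the values were 46.8 and 32.9 (wild type) against 8.45 and 31.0 (double mutant). The ratio of Mcl1 to Bak1 lay between 0.712 and 1.06 in the 8 HSPC libraries and between 3.45 and 8.78 in the 4 Ly6G+ libraries. Within the survival class, the ratio of Bcl2 to Bcl2l1 went from 0.291 and 0.311 in wild type to 0.865 and 0.638 in CBL mutant HSPC. It was 3.64 in double mutant Ly6G+ library 1 against 0.134 to 0.141 in the other 3 Ly6G+ libraries.

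**Figure D3:**
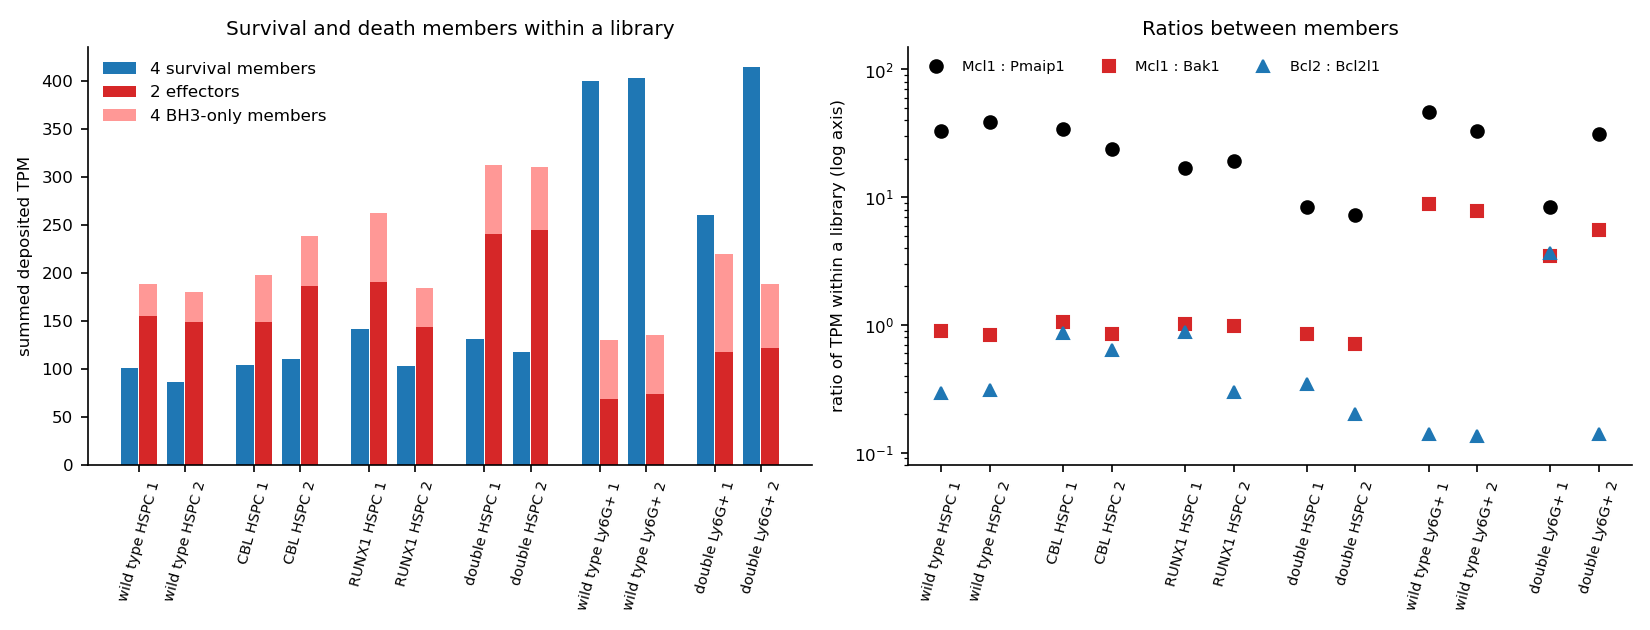
Left, summed deposited TPM per library of the 4 survival members and, stacked beside them, of the 2 effectors and the 4 BH3-only members. Right, ratios of Mcl1 to Pmaip1, Mcl1 to Bak1 and Bcl2 to Bcl2l1 within a library on a log axis. Survival members exceed death members in the 4 Ly6G+ libraries only, and the ratio of Mcl1 to Pmaip1 is 8.39 and 7.28 in double mutant HSPC against 17.1 to 39.1 in the other HSPC libraries.

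**Figure D4:**
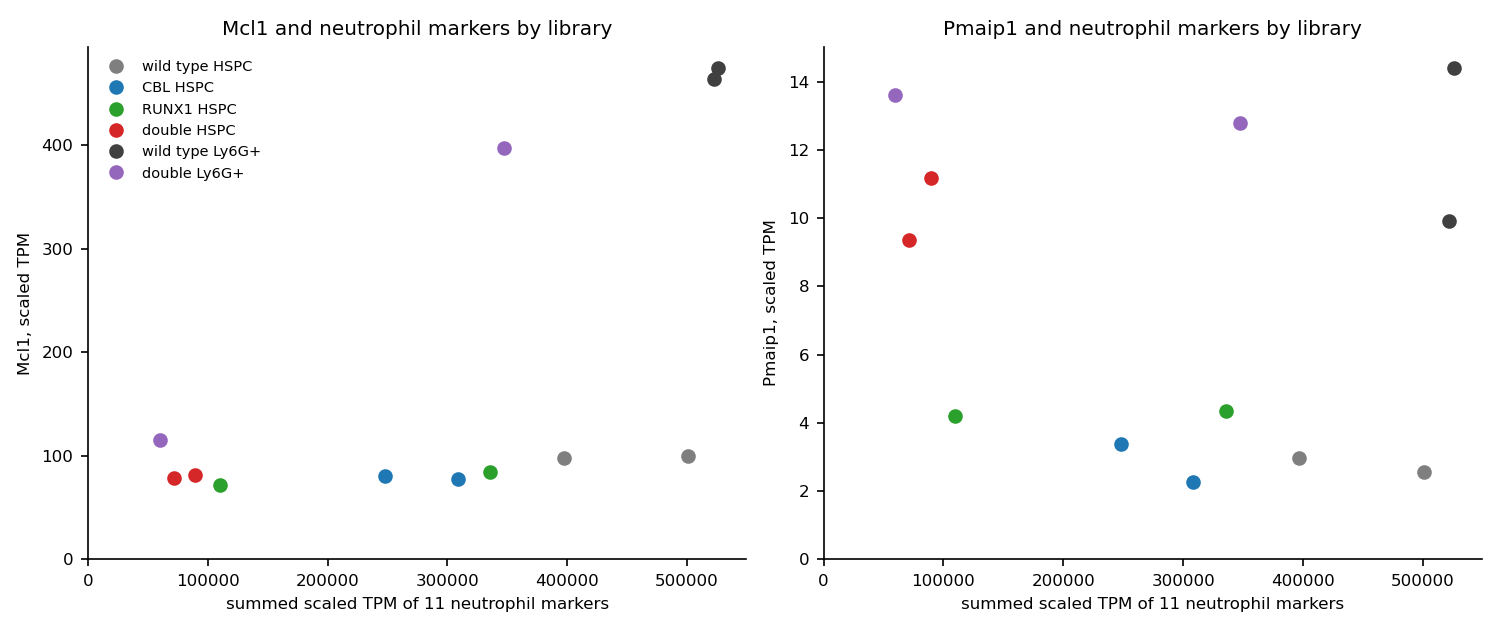
Mcl1 (left) and Pmaip1 (right) in scaled TPM against the summed scaled TPM of 11 neutrophil markers, 1 point per library, coloured by group. Among HSPC, Mcl1 runs from 71.5 to 99.3 and the marker sum from 71400 to 501000. Mcl1 is highest in the 2 wild type HSPC libraries, which have the highest marker sums of the HSPC. In the mutant HSPC libraries Mcl1 lies between 71.5 and 84.1 over marker sums of 71400 to 335500. Pmaip1 is highest among HSPC in the 2 double mutant libraries, which have the lowest marker sums.

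Other genes of the pathway were read from fixed lists in the same fits, as counts beside the share of all genes called. The list of 14 further BCL2 family genes had 9 tested, of which none passed in double mutant against wild type HSPC, against 11.1% of all genes. Those nearest were Bnip3l, a mitophagy receptor, at a log2 fold change of -0.77 (adjusted p = 0.0784) and Bok, a relative of the effectors, at 0.75 (adjusted p = 0.0821). Between the wild type populations 2 of these 9 rose in Ly6G+ cells and 2 fell, against 16.4% and 22.7% of all genes. Bmf, another BH3-only gene, rose by a log2 of 1.68 ± 0.49 (adjusted p = 0.0259) and Bnip3 by 1.58 ± 0.23 (adjusted p = 0.0016), whereas the survival gene Bcl2l2 fell by -0.74 ± 0.20 (adjusted p = 0.0204) and Bcl2l12 by -1.50 ± 0.26 (adjusted p = 0.00333).

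Downstream of the mitochondria, 2 of 20 tested genes of the apoptosome and caspase list were higher in double mutant than in wild type HSPC and 1 was lower, so that 3 of 20 passed, near the 11.1% of all genes. Parp1, a DNA repair enzyme that caspases cleave, rose by a log2 of 0.75 ± 0.14 (adjusted p = 0.0268) and Endog, a mitochondrial nuclease, by 0.71 ± 0.15 (adjusted p = 0.0352), while Xiap, an inhibitor of caspases, fell by -0.56 ± 0.12 (adjusted p = 0.038). Against RUNX1 mutant HSPC, 3 of the 20 were higher and 1 was lower, where 9.09% of all genes passed. These were the same 3 genes in the same directions and Cycs, which encodes cytochrome c, higher by 0.65 ± 0.13 (adjusted p = 0.0339). Both comparisons share the double mutant libraries. None of the 20 passed against CBL mutant HSPC, where 3.67% of all genes did. None passed in CBL or RUNX1 mutant against wild type HSPC either, where 0.556% and 0.0483% did. Between the wild type populations 3 of the 20 rose in Ly6G+ cells and 5 fell, near the 16.4% and 22.7% of all genes. Birc3, an inhibitor of apoptosis protein, rose by 1.74 ± 0.36 (adjusted p = 0.00669), whereas Cycs fell by -1.53 ± 0.14 (adjusted p = 0.000511) and Htra2, a mitochondrial protease, by -1.47 ± 0.17 (adjusted p = 0.000812).

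Of 12 tested p53 pathway genes, the list that bears on Pmaip1 and Bbc3, none was higher in double mutant than in wild type HSPC and 2 were lower, near the 11.1% of all genes that passed. Trp53inp1, a p53 target, fell by a log2 of -1.72 ± 0.21 (adjusted p = 0.012), from 23.0 and 21.7 to 5.35 and 6.98 scaled TPM, and Sesn2 by -0.79 ± 0.19 (adjusted p = 0.0464). Aen, a nuclease gene that p53 induces, was at 16.2 and 20.2 scaled TPM in wild type and at 29.9 and 30.7 in double mutant HSPC (log2 fold change 0.71, adjusted p = 0.0729). Against RUNX1 mutant HSPC, where 9.09% of all genes passed, Aen rose by 0.94 ± 0.22 (adjusted p = 0.0456) and Trp53inp1 fell by -1.78 ± 0.21 (adjusted p = 0.013). In double mutant HSPC, 2 of the 12 lay above wild type without overlap and 6 lay below, where 71.1% of all genes did not overlap. The median log2 fold change of the list against wild type HSPC was -0.192, against 0.022 for all genes. In wild type Ly6G+ cells 4 of 14 rose and 4 fell against HSPC, where 16.4% and 22.7% of all genes did so, with Trp53inp1 up by 2.09 ± 0.37 (adjusted p = 0.00352) and Trp53 itself down by -1.25 ± 0.34 (adjusted p = 0.0195). No gene of this list passed in CBL or RUNX1 mutant against wild type HSPC, where 0.556% and 0.0483% of all genes did. Against CBL mutant HSPC, where 3.67% of all genes passed, the nearest in the double mutant were Perp at -1.19 (adjusted p = 0.0507) and Trp53inp1 at -0.99 (adjusted p = 0.0529).

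Death receptor and cytokine genes feed into the family from the cell surface. Of 8 death receptor genes, Tradd alone passed in double mutant against wild type HSPC, lower by a log2 of -0.52 ± 0.12 (adjusted p = 0.0433), against 11.1% of all genes. Between the wild type populations 2 of the 8 rose in Ly6G+ cells and 1 fell, against 16.4% and 22.7% of all genes. Fas rose by 2.93 ± 0.66 (adjusted p = 0.00904) and Tnfrsf1b, a receptor for TNF, by 1.30 ± 0.40 (adjusted p = 0.031), and the adaptor Fadd fell by -1.48 ± 0.19 (adjusted p = 0.00107). Of 22 cytokine survival genes, 1 was higher and 2 were lower in double mutant than in wild type HSPC, near the 11.1% of all genes that passed. Foxo1, a transcription factor that AKT holds out of the nucleus, rose by 1.51 ± 0.36 (adjusted p = 0.0442), while Relb, of the NF-kB family, fell by -1.32 ± 0.23 (adjusted p = 0.0246) and Akt2 by -0.56 ± 0.11 (adjusted p = 0.0318). Against RUNX1 mutant HSPC, Tradd (-0.63, adjusted p = 0.032), Relb (-1.01, adjusted p = 0.0427), Csf3r (-0.79, adjusted p = 0.0405) and Akt2 (-0.46, adjusted p = 0.05, just under the limit before rounding) were lower, 1 of 8 and 3 of 22 genes against 9.09% of all genes. Of these 22, 9 rose in wild type Ly6G+ cells against HSPC and none fell, where 16.4% of all genes rose and 22.7% fell. They included Csf3r, the receptor for the neutrophil growth factor G-CSF, at a log2 of 3.40 ± 0.58 (adjusted p = 0.00312), and Foxo3, a transcription factor of the BIM gene, at 1.53 ± 0.20 (adjusted p = 0.00116).

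Across the 12 libraries the members did not vary as 2 blocs. On log2 values the Pearson correlation of Mcl1 was 0.83 with Bid, 0.78 with Bcl2a1b and -0.83 with Bax, and that of Bax with Bak1 was 0.78. Bcl2 was most alike to Bbc3, at 0.50, and least alike to Bcl2l1, at -0.65. The genes most like each member, among 9199 whose log2 level averaged 2 or more, were Herc4 (0.996) and Foxk1 (0.994) for Mcl1, Mydgf (0.989) and Eif4e (0.988) for Bax, and Tuba4a (0.982) and Ccdc124 (0.977) for Bak1. For Pmaip1 they were Jun (0.929), a stress-responsive transcription factor, and Gpalpp1 (0.894). For the others they were Pigh (0.962) and Ptprs (0.959) for Bcl2, Csf2rb (0.965) and Egln2 (0.958) for Bcl2l1, Gtdc1 (0.939) and Inpp5f (0.905) for Bcl2a1b, Polr1a (0.934) and Cacul1 (0.931) for Bid, Slc44a2 (0.927) and Epha2 (0.913) for Bcl2l11, and Rtl8a (0.911) and Cuedc1 (0.901) for Bbc3. These correlations are descriptions over 12 libraries that share 2 cell populations and the same scaling.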

How the data were processed

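Messenger RNA was sequenced in 12 mouse bone marrow libraries, 2 in each of 6 groups taken from the sample labels. The submitters' processing notes name bcl2fastq, CASAVA 1.8, kallisto and mm10; versions, the annotation and the joining of transcripts to genes are not given in the sources used here. The authors deposited TPM, although the table is named as counts: values are not whole numbers, libraries sum to between 933370 and 981994, and read depth is unknown. Of 28987 Ensembl identifiers, 94.73% had a symbol.

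TPM were scaled between the libraries of a fit by trimmed means (unweighted TMM, trimming 0.3 of log ratios and 0.05 of levels). Genes with at least 1 TPM in at least 2 libraries were tested with limma 3.58.1 in R 4.3.3 on log2(scaled TPM + 1), a scale that understates changes of low genes, with trended and robust moderation and Benjamini-Hochberg adjustment over all genes. The limit was an adjusted p under 0.05, two-sided. The planned count test was not used, since the table holds no counts. HSPC shared a fit of 8 libraries, Ly6G+ cells had 4, and comparisons between populations used all 12. Levels are scaled over all 12, and ratios within a library use the deposited TPM. With 2 libraries a group, p-values measure only the spread between libraries. The fits were tested on data simulated with the same spread in every library. That spread was below that between the replicates of each of the 6 groups, and furthest below in RUNX1 mutant HSPC and double mutant Ly6G+ cells. The simulation therefore does not cover the spread of these data. The members, the lists and the tests were chosen with earlier results of these data known. The text names all 10 members. From each other list it draws on the called genes (at most 4 per direction where over 6 pass) or the 2 with the smallest p, and it gives for each member the 2 genes of highest correlation.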

Additional observations from a re-analysis of the deposited data

How the results depend on the processing

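Alternatives were other scalings, pseudocounts of 0.1 and 5, no filter and a filter at 5 TPM, a replicate block, no trended or robust moderation, array weights, a fit restricted to the compared groups, a fit across all 12 libraries, and each library left out in turn. Of 2043 member values under them, 65 had the opposite sign, none among the 12 changes that had passed, and 21 of the 65 came from unscaled TPM and 39 from leaving out 1 library. Of the passed values 72 were lost, 52 of them on leaving out 1 library, and 61 values newly passed. Pmaip1 in double mutant against wild type HSPC passed in every alternative that kept all libraries, at a log2 of 0.98 (pseudocount 5) to 2.08 (unscaled TPM) and an adjusted p of 0.000384 to 0.0288.

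The number of members called moved as follows. These counts stand without the share of all genes called in each fit, which moved too, so they do not set the family apart. Between the wild type populations most genes passed with array weights, where limma gave Bcl2l11 an unadjusted p of 0.0057 and an adjusted p of 0.0103. For CBL mutant against wild type HSPC it was 2 in the fit of these groups alone. For double mutant against wild type HSPC it was 3 with unscaled TPM, 3 with array weights and 2 in the fit of these groups alone, and against CBL mutant HSPC it was 2 with array weights and 3 in the fit of these groups alone. Against RUNX1 mutant HSPC it was 3 with upper-quartile scaling, 2 with the filter at 5 TPM, and 0 with unscaled TPM, no filter, array weights, the compared groups alone or all 12 libraries. Between the wild type populations, with 6 called, it was 5 with relative log expression (RLE) scaling, unscaled TPM or a pseudocount of 0.1, 4 with no filter, and 8 with array weights, the compared groups alone or both libraries that stood apart left out, where Bcl2l1 and Bcl2l11 were added. For double mutant Ly6G+ cells against HSPC it was 2 with a pseudocount of 5, 1 with no filter and 0 with array weights or the compared groups alone. In the interaction it was 1 without both libraries that stood apart, an alternative chosen after seeing the data. Leaving out 1 library gave 0 to 1 members for CBL mutant, 0 to 4 for RUNX1 mutant and 0 to 2 for double mutant against wild type HSPC, 0 to 3 and 0 to 4 for double mutant against CBL and RUNX1 mutant HSPC, and 0 to 4 for the non-additive term. It gave 0 to 6 for double mutant against wild type Ly6G+ cells, 4 to 8 between the wild type populations, 1 to 6 between the double mutant populations and 0 to 5 for the interaction. Where a group was left with 1 library, that library was assumed to vary like the others. The cause of these shifts was not tested, beyond the smaller number of libraries.

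With unscaled TPM signs turned for 6 members in double mutant against wild type HSPC, at 0.33 (Mcl1) to 0.48 (Bak1), all below the median of all genes. Signs also turned for Pmaip1 in CBL mutant HSPC (-0.20 to 0.23 on leaving out 1 library) and for Bbc3 in RUNX1 mutant HSPC (-0.21 to 1.8). Unscaled TPM moved the median of all genes by a log2 of 0.329 for CBL mutant, 0.447 for RUNX1 mutant and 0.561 for double mutant against wild type HSPC, and by 0.577 for double mutant against wild type Ly6G+ cells.

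The mean log2 ratio of survival to death members was -0.98, -1.02, -0.86 and -1.32 in wild type, CBL, RUNX1 and double mutant HSPC and 1.60 and 0.69 in wild type and double mutant Ly6G+ cells. Without Mcl1 it was -3.37, -3.04, -2.74, -3.44, -2.21 and -1.87. As a difference of mean log2 values, a description chosen with earlier results known, it was -0.42, -0.46, -0.50, -0.83, 0.31 and 0.24.

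The replicate numbers were not used to pair the libraries in the main fits. Same-numbered libraries deviated together with correlations of -0.014 to 0.463 between groups. The highest was that between RUNX1 mutant HSPC and double mutant Ly6G+ cells. With the replicate block, the number of members called was 2 for double mutant against RUNX1 mutant HSPC, where Bid also passed (log2 0.54, adjusted p = 0.0378), and it changed no other count. Bcl2a1a and Bcl2a1d were not analysed here, so the planned sum with Bcl2a1b was not run. Depth is unknown, so no counting interval can be given for the low members.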
